A study of Bos taurus with 26 samples.

Results

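The 150 gene IDs described here had lower CPM (a gene's share of its library's counts, scaled to a common total) in Fert+ corpus luteum libraries 15, 16, 18 and 19 than in the other 8 corpus luteum libraries. They were chosen by measured values, out of 24616 IDs in the deposited count tables. An ID had to average at least 2 CPM in corpus luteum and less than 20 times its endometrial mean, limits that 12121 IDs met. Its highest value in the 4 libraries then had to lie below its lowest value in the other 8, and the mean of Fert+ libraries 21, 23 and 24 could not lie below the lowest Fert- library. Of the 12121 IDs, 341 (2.81%) had all 4 libraries below the other 8, 112 of these failed the condition on libraries 21, 23 and 24, and the 150 with the largest gap were taken from the remaining 229. The gap is the lowest log2(CPM + 1) of the other 8 minus the highest of the 4. Every luteal difference below that sets these libraries against each other is therefore a description of the selection and carries no test.

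In the study, polyadenylated RNA was sequenced from Holstein cows bred in lines of high (Fert+) or low (Fert-) fertility, in tissue taken on day 13 of the oestrous cycle. Endometrium, from biopsies of the uterine horn on the side of the corpus luteum, gave 8 Fert+ and 6 Fert- libraries, and corpus luteum gave 7 Fert+ and 5 Fert- libraries. Each library carries a batch label (1 to 4) and the parity of its cow (2 to 4). Of the 4 luteal libraries set apart by the rule, 15 and 18 were in batch 4, 16 in batch 3 and 19 in batch 2, and their cows had a parity of 3 except for library 19, with a parity of 4. Fert+ libraries 21 and 24 (batch 1, parity 2) and 23 (batch 3, parity 4) were the others of their line. The Fert- libraries were 17 (batch 2, parity 4), 20 and 28 (batch 1, parity 4) and 25 and 27 (batch 3, parity 3), so luteal batch 4 held no Fert- library, and line and batch cannot be told apart there. Nothing in the labels states that libraries of a tissue are from different cows, so a p-value here measures the spread between libraries, which may be technical.

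The corpus luteum is the gland that forms from the ovulated follicle and secretes progesterone. It holds steroid-producing luteal cells among many endothelial cells, with pericytes, fibroblasts and immune cells. The endometrium is the lining of the uterus, which progesterone prepares for a possible embryo. In whole tissue, fewer cells of a type and less RNA per cell cannot be told apart. The count tables hold gene IDs only, and 0 of them had an entry in the RefSeq gene table at hand, so the IDs are given without names, functions or sequences, and the labelled tissues were not checked against cell type markers.

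Totals ran from 9627378 to 18008417 counts per library, and the lowest rank correlation between 2 libraries of a tissue (0.947) lay above the highest across tissues (0.935). The 4 set-apart libraries had a count for 17014 to 17325 IDs, against 15935 to 16609 in the other 8. Their scaling factors by trimmed mean of M values (TMM, which sets the bulk of IDs level between libraries) were 1.09 to 1.15, against 0.877 to 1.00. The part of either difference in the members' levels was not tested.

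The members were lower as a block, and by a moderate amount. Together they took 3.98%, 3.78%, 3.81% and 4.04% of all counts in libraries 15, 16, 18 and 19, a mean of 3.90% ± 0.127 (SD, n = 4). Their share was 5.04%, 5.32% and 4.84% in Fert+ libraries 21, 23 and 24, a mean of 5.07% ± 0.240 (SD, n = 3). In Fert- libraries 17, 20, 25, 27 and 28 it was 5.94%, 5.41%, 5.33%, 5.21% and 6.08%, a mean of 5.59% ± 0.390 (SD, n = 5). The 4 libraries lay below all others, while the ranges of libraries 21, 23 and 24 and of the Fert- libraries overlapped. The 14 endometrium libraries spread from 4.52% to 6.09% with a mean of 5.47% ± 0.407 (SD, n = 14), so each of the 4 luteal libraries also held less of these transcripts than any endometrium library did. That order too describes IDs chosen for low values in the 4 libraries.

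**Figure D1:**
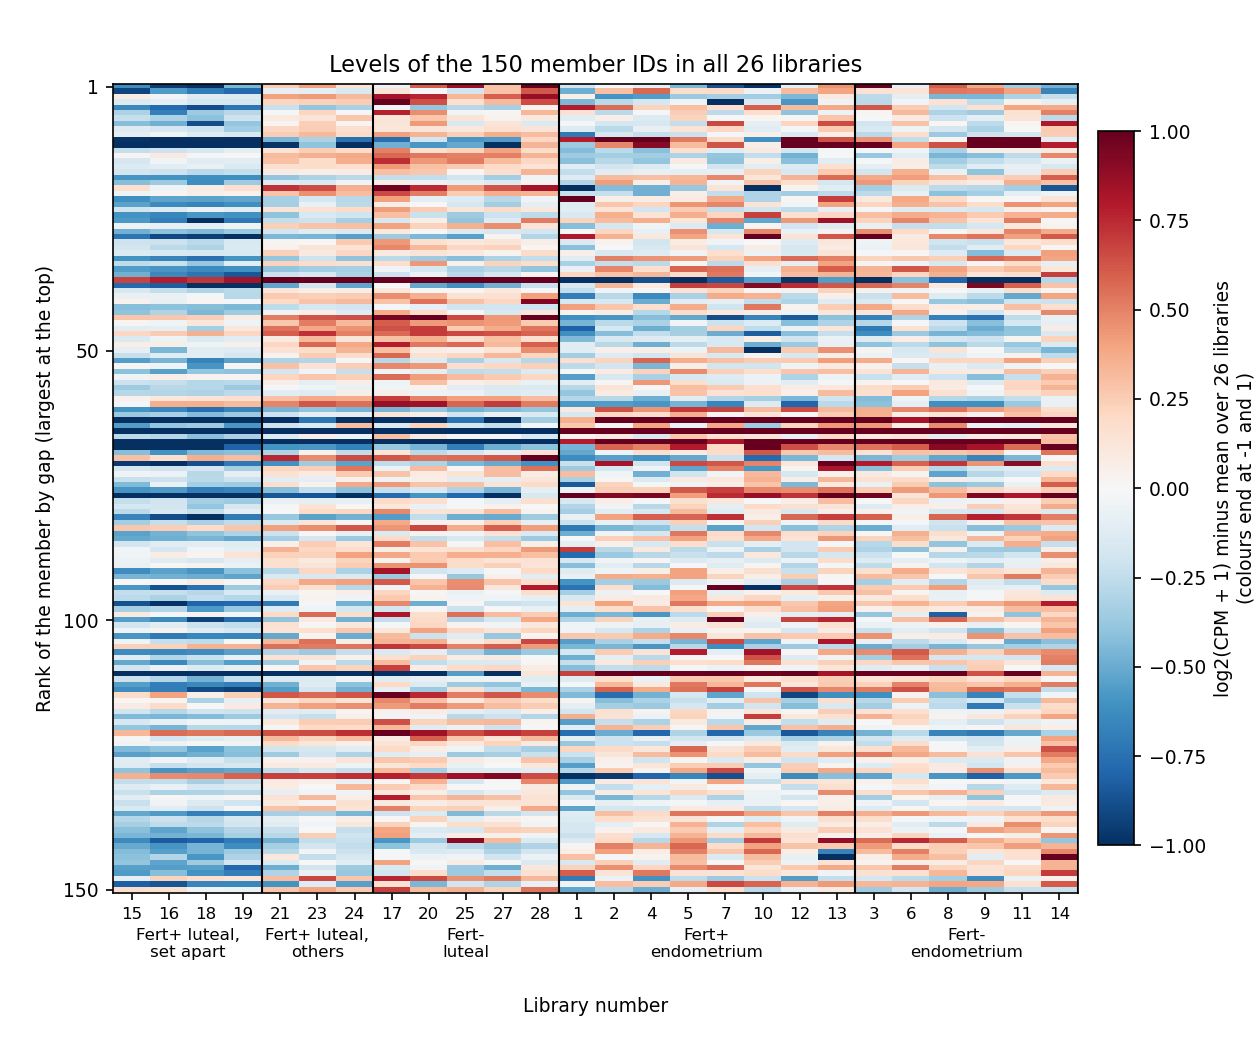
Level of each of the 150 members (rows, largest gap at the top) in the 26 libraries (columns, grouped by tissue and line), as log2(CPM + 1) minus the member's mean over the 26 libraries. In every row the values in the 4 columns on the left lie below those in the other 8 luteal columns, which is how the rows were chosen, while the endometrium columns differ from row to row.

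Per member, the mean of the 4 libraries lay below the mean of the other 8 by a median of 0.37 on the log2 scale, with a range from -1.42 to -0.18. Over all 12121 IDs the median difference was 0.18 in the opposite direction. With TMM scaling within corpus luteum the median over all IDs moved to -0.04, a shift of the bulk, and the members' median moved with it to -0.61. Under TMM scaling over the 26 libraries all 150 members had the 4 libraries below the other 8, as did 1436 of the 12121 IDs (11.8%). For the members this was fixed in advance. Those factors were 0.959 to 1.00 in the 4 libraries and 0.784 to 0.890 in the other 8. Dividing by them lowers the 4 against the other 8 for every ID. Separation with the 4 below was thus more common on that scale than with library totals (341 IDs, 2.81%). With library totals, 3077 IDs (25.4%) had all 4 above the other 8, and this direction was not counted with TMM scaling.

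The gaps that ranked the members were small. They ran from 0.05 to 0.42 with a median of 0.10, and 78 members had a gap over 0.1 and 19 a gap over 0.2. At the end of the list, the member ranked 150 had 74.7 CPM in its highest set-apart library and 77.3 CPM in its lowest other library, and the ID ranked 151, just outside, had 163 and 168 CPM. The counting error of a gap had a median of 0.06 (log2 standard error from the counts alone), and 72 of the 150 gaps were over 2 such errors wide. For the other members the order of the 2 libraries at the gap was within 2 counting errors. No member was at 0 in any library, and the lowest count was 13.

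No single library set the edge of the gap. The highest of the 4 was library 19 for 47 members, 15 for 42, 16 for 37 and 18 for 24. The lowest of the other 8 was Fert- library 25 for 34 members and Fert+ library 21 for 33, and Fert- library 20 for 2. At the upper end Fert- library 17 had the highest luteal value for 70 members and Fert- library 28 for 31, while Fert+ libraries 21, 23 and 24 had it for 3, 4 and 8.

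Libraries 21, 23 and 24 stood between the 4 and the Fert- libraries for most members. Their mean lay below the Fert- mean for 128 of the 150 members (85.3%), against 33.0% of the 12121 IDs. The members' median difference was -0.08 (log2), although the rule had kept out IDs on which they fell below every Fert- library. Over all IDs the corresponding median was 0.10 in the opposite direction. With TMM scaling the members' median was -0.16 and 148 members (98.7%) were lower, against 46.3% of all IDs. With TMM over 26 libraries, 64 members (42.7%) still met the rule's condition on libraries 21, 23 and 24, against 88.2% of all IDs. How far these libraries resemble the Fert- libraries on the members therefore differed with the scaling.

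**Figure D2:**
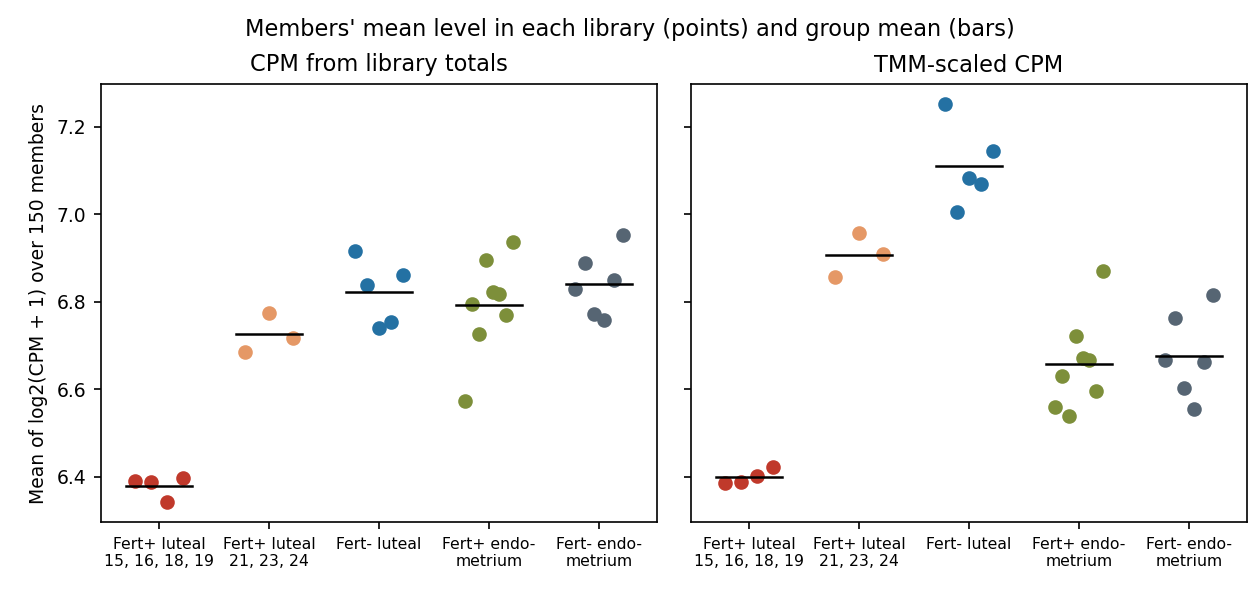
Mean log2(CPM + 1) over the 150 members in each library (points; bars are group means), with CPM from library totals on the left and TMM-scaled CPM on the right. The 4 set-apart libraries lie from 6.34 to 6.40 on the left and from 6.38 to 6.42 on the right, below all others; libraries 21, 23 and 24 overlap the Fert- range on the left and lie below it on the right.

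Within batches the same libraries stayed low. In batch 2, library 19 lay below Fert- library 17 for all 150 members, by a median of 0.51 (log2). In batch 3, library 16 lay below the mean of Fert- libraries 25 and 27 by a median of 0.30, and below Fert+ library 23 by 0.35, again for all 150. These directions follow from the selection, and only their sizes are described. In batch 1, Fert+ libraries 21 and 24 lay below Fert- libraries 20 and 28 for 122 members (81.3%), against 45.1% of all IDs. The median difference was -0.09 over the members and 0.03 over all IDs. There the Fert+ cows had a parity of 2 and the Fert- cows a parity of 4. In batch 3, library 23 against Fert- libraries 25 and 27 gave a median of 0.02 with library totals. There 61 members (40.7%) were lower and 89 higher, against 27.7% lower and a median of 0.12 over all IDs. With TMM scaling the median was -0.10 and 120 members (80%) were lower, against 48.8% and a median of 0.01 over all IDs. The sign of the members' median turned with the scaling, while it lay below that of all IDs under both.

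The largest gap was 0.42, within 2 counting errors of 0.32 each, and belonged to ENSBTAG00000018189, an ID of low abundance. It was at 2.21, 1.55, 0.840 and 2.60 CPM in libraries 15, 16, 18 and 19, and at 4.86, 5.54 and 4.42 CPM in Fert+ libraries 21, 23 and 24. In Fert- libraries 17, 20, 25, 27 and 28 it was at 3.81, 6.51, 7.92, 5.00 and 18.8 CPM. The highest value lay far above the other Fert- values, and those overlapped libraries 21, 23 and 24. In endometrium it ran from 1.11 to 11.6 CPM with a median of 3.62 CPM (n = 14), a range that took in 3 of the 4 set-apart libraries and all of the others except library 28.

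ENSBTAG00000005432 had the second gap. Libraries 15, 16, 18 and 19 held 25.7, 33.1, 30.2 and 28.5 CPM of it, Fert+ libraries 21, 23 and 24 held 46.6, 46.2 and 44.5 CPM, and Fert- libraries 17, 20, 25, 27 and 28 held 53.9, 49.6, 43.2, 60.6 and 76.8 CPM. Libraries 21, 23 and 24 were close together, inside the Fert- range. Its endometrial values ran from 30.8 to 74.1 CPM with a median of 58.9 CPM (n = 14), and library 16 alone of the 4 set-apart libraries lay inside that range, near its lower end.

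The 2 most abundant members showed the same order at much higher levels. ENSBTAG00000013472 was at 4499, 3693, 4028 and 5257 CPM in libraries 15, 16, 18 and 19, at 8047, 7514 and 5580 CPM in libraries 21, 23 and 24, and at 6577, 8585, 9353, 7312 and 11701 CPM in Fert- libraries 17, 20, 25, 27 and 28. ENSBTAG00000014534 was at 3584, 3277, 3811 and 3487 CPM in the 4 libraries, at 4000, 5000 and 4239 CPM in libraries 21, 23 and 24, and at 6330, 4318, 4642, 4632 and 5172 CPM in the Fert- libraries. For both, libraries 21, 23 and 24 reached below the lowest Fert- library and overlapped the Fert- range. In endometrium ENSBTAG00000013472 spread from 3183 to 14242 CPM (median 7137, n = 14), wider than in corpus luteum, and ENSBTAG00000014534 from 4355 to 7383 CPM (median 5954, n = 14), above all of the 4 set-apart libraries.

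**Figure D3:**
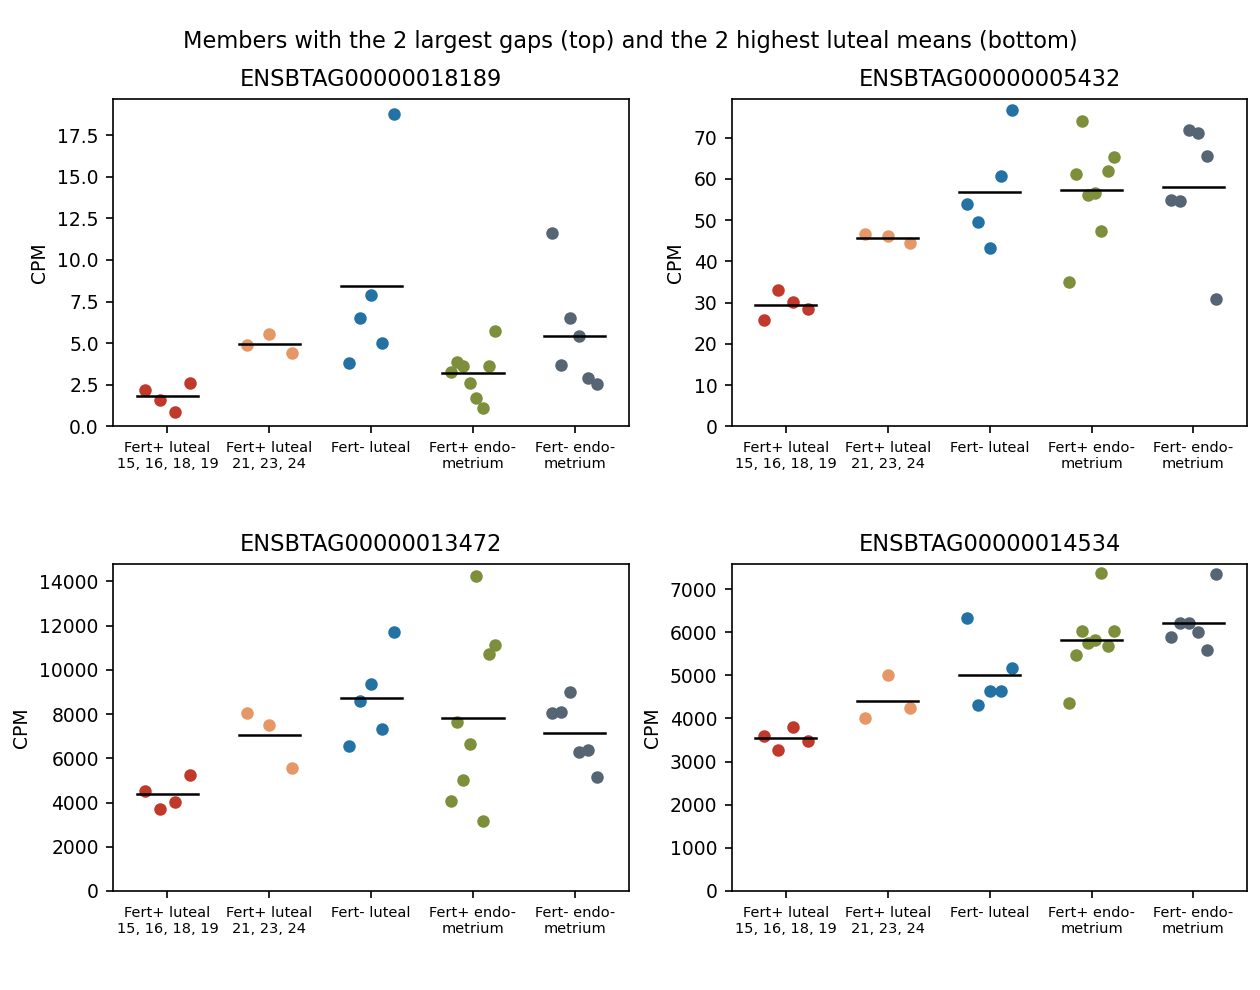
CPM of the 2 members with the largest gaps and the 2 with the highest luteal means, by library (points) and group mean (bars), on linear axes from 0. The 4 set-apart libraries are the lowest luteal points in each panel, for example 25.7 to 33.1 CPM against 43.2 CPM and more for ENSBTAG00000005432.

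The members were more abundant than most IDs. Their luteal mean had a median of 92.1 CPM, against 22.3 CPM over the 12121 IDs, and ran from 2.45 to 6845 CPM. Of the 83 IDs at 1000 CPM or more, 10 were members, against 59 (4.19%) of those from 100 to 1000 CPM, 73 (1.00%) of those from 10 to 100 CPM and 8 (0.240%) of those under 10 CPM. The direction in all IDs also changed with abundance: the 4 libraries minus the other 8 had a median of 0.26 (log2) under 10 CPM and -0.28 at 1000 CPM or more. In the members the corresponding medians were -0.53 and -0.41.

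The members were expressed in both tissues. The ratio of their luteal to their endometrial mean lay within 2-fold for 133 of the 150 (88.7%), against 73.4% of the 12121 IDs; 5 members were over 2-fold higher in corpus luteum and 12 in endometrium. In edgeR's quasi-likelihood test of corpus luteum against endometrium, adjusted by the Benjamini-Hochberg method over 14968 IDs, 80 members were higher in corpus luteum, where 33.5% of all IDs were called, and 34 were lower, where 39.8% were called. Their median log2 fold change was 0.23, against -0.08 over all IDs. The rule had limited this ratio and set a luteal minimum, so the counts are a description. The test treats the tissues as unpaired, and its p-values assume that they shared no cows.

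The side of endometrium on which the members lay depended on which luteal libraries were read and on the scaling. Without the 4 set-apart libraries the same fit called 101 members higher and 14 lower in corpus luteum, with a median of 0.51. Over all IDs it called 10769 in either direction, against 10972 with every library. By the rule every member was lowest in those 4 luteal libraries, so more members called higher without them follows from the selection. With CPM from library totals the median difference of the 12 luteal libraries from endometrium was -0.09, that of the 4 set-apart libraries -0.30 and that of the other 8 was 0.01. With TMM scaling over 26 libraries these medians were 0.23, -0.13 and 0.41. In 110 members (73.3%) the mean of the 4 lay below the endometrial mean with library totals, against 55.6% of the 12121 IDs. With TMM scaling this held for 92 members (61.3%), against 46.7% of the 12121 IDs. For 64 members (42.7%) all 4 libraries lay below every endometrium library, against 24.5% of the 12121 IDs. For 12 members (8%) all 4 lay above every one, against 20.5% of the 12121 IDs. The members were chosen for low values in these 4 libraries, so the shares given for the 4 describe the selection and carry no test.

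**Figure D4:**
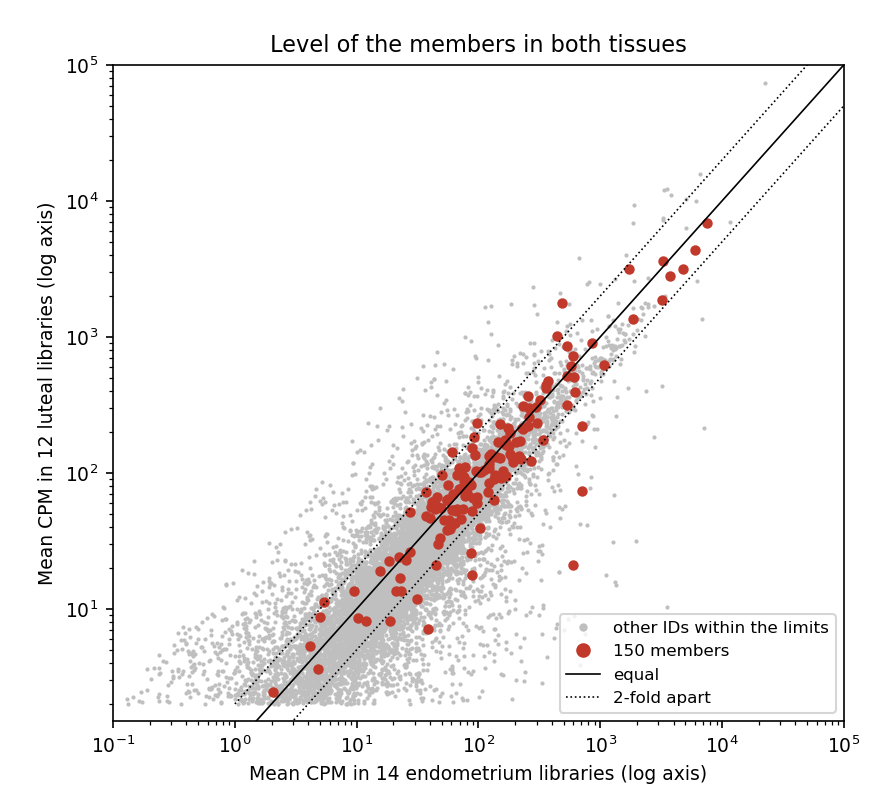
Mean CPM in 12 luteal against 14 endometrium libraries (both axes logarithmic) for the 150 members and the other IDs within the limits, with lines for equal means and for a 2-fold difference. Most members, 133 of 150, lie between the 2-fold lines, and they lie further up the diagonal than the bulk of IDs.

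The member with the smallest p for higher luteal levels was ENSBTAG00000014731, at 1379 to 2118 CPM in corpus luteum (median 1834, n = 12) and 333 to 706 CPM in endometrium (median 453, n = 14). The tissues did not overlap, and the log2 fold change was 2.23 with an SE of 0.09 (adjusted p = 3.38e-16 in edgeR's quasi-likelihood test). ENSBTAG00000009902 had the smallest p for lower luteal levels, at 54.4 to 90.0 CPM in corpus luteum (median 75.6, n = 12) and 296 to 1087 CPM in endometrium (median 686, n = 14). Its log2 fold change was -2.93 with an SE of 0.18 (adjusted p = 6.76e-13 in the same edgeR test). These members, with opposite tissue preferences, lay below the other 8 luteal libraries by similar amounts in the 4, with differences of -0.40 and -0.42 on the log2 scale.

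Endometrium allowed a test of the fertility line that the selection had not used. No member was called between Fert+ and Fert- endometrium. In edgeR's quasi-likelihood test with batch in the model, 0 of 150 members and 0 of 14243 IDs (0%) were called. The lowest adjusted p among the members was 0.981 in that test. As 0 IDs were called at all, this does not show the members to be equal between the lines. DESeq2 called 0 members among the 10 IDs it called, and limma-voom called 0 members. At an unadjusted p under 0.05 there was 1 member of 150, against 3% of all IDs. The median log2 fold change over the members was -0.02 (64 above and 86 below 0; median SE 0.10), with a range from -0.63 to 0.43. The members took 5.45% ± 0.521 (SD, n = 8) of the counts of Fert+ endometrium and 5.49% ± 0.223 (SD, n = 6) of those of Fert- endometrium, a difference smaller than the spread in either line. Within batches 1 to 4 the median over members of Fert+ minus Fert- was -0.06, 0.10, -0.03 and -0.11 (log2) with library totals. Its sign was not the same in every batch, and batch 2 held 1 library of each line. The medians over all IDs had the same signs, at -0.001, 0.05, -0.02 and -0.08. With TMM scaling within endometrium the members' medians were -0.07, 0.04, 0.005 and -0.02, against -0.01, 0.00, 0.02 and 0.01 over all IDs.

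Neither of the members leading the 2 directions passed the threshold. ENSBTAG00000037735 ran from 11.8 to 59.3 CPM in Fert+ (median 30.9, n = 8) and from 15.4 to 45.6 CPM in Fert- endometrium (median 22.2, n = 6), and its log2 fold change was 0.43 with an SE of 0.20 (adjusted p = 0.981 in edgeR's quasi-likelihood test). ENSBTAG00000013411 ran from 301 to 595 CPM in Fert+ (median 387, n = 8) and from 364 to 763 CPM in Fert- (median 434, n = 6), and its log2 fold change was -0.28 with an SE of 0.13 (adjusted p = 0.981 in the same edgeR test). The lines overlapped widely in both. In corpus luteum the first was at 8.83, 8.00, 6.50 and 6.61 CPM in libraries 15, 16, 18 and 19, and at 10.5 to 21.5 CPM in the other 8.

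In corpus luteum the line comparison used the same values as the rule and is given only to show its size. With batch in the model, edgeR's quasi-likelihood test called 0 members, 0% of 13462 IDs, while DESeq2 called 3 members among 227 IDs called. Without the batch term edgeR called 39 members among 1191 IDs, and without Fert+ library 23 it called 29 among 908. At an unadjusted p under 0.05, 107 members were lower in Fert+, where 9.01% of all IDs were. The members' median log2 fold change was -0.35, and -0.13 without the 4 set-apart libraries, where 3 members among 519 IDs had an unadjusted p under 0.05 and edgeR called 0. Single libraries moved the 107, and in these fits the number over all IDs, 2845 with every library, moved too. It was 23 members among 1104 IDs without Fert- library 17 and 24 among 1105 without Fert+ library 19, the only luteal libraries of batch 2. Without Fert+ library 16 it was 37 among 1539, and without Fert- libraries 25 and 27 it was 54 among 2169 and 63 among 2410.

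In endometrium no member passed the test for batch. edgeR's quasi-likelihood test of the batch number called 0 members at an adjusted p under 0.05, where 8 of 14243 IDs (0.0562%) were called. At an unadjusted p under 0.05 there were 40 members (26.7%), against 13.2% of all IDs. With any 1 library left out there were from 30 to 43 members. The number over all IDs, 1885 with every library, then ran from 1491 to 2099. Batch 4 had the lowest mean of the 4 batches for 103 members (68.7%), against 37.2% of the 12121 IDs, and batch 1 the highest for 77 (51.3%), against 23.1%. Under TMM scaling within endometrium these were 83 and 93 members, against 28.1% and 29.1% of all IDs. The 10 most abundant IDs of Fert+ library 1 took 14.2% of its counts. Without that library, and with library totals, these counts were 76 and 75 members, against 25.6% and 21.1% of all IDs. Parity moved with batch. With library totals over all 14 libraries, cows of parity 3 had the lowest mean of the 3 parities for 98 members (65.3%). Over the 12121 IDs this share was 32.8%. The parts of batch and parity cannot be told apart from these means.

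ENSBTAG00000014731, named above for its tissue difference, had its highest endometrial values in batch 1, but batch 4 was not its lowest. It was at 484, 587, 584, 644 and 706 CPM in endometrium libraries 7, 10, 13, 6 and 14 of batch 1, and at 394 and 414 CPM in libraries 3 and 5 of batch 2. In batch 3 it was at 385, 387, 415 and 438 CPM in libraries 2, 9, 11 and 12, and in batch 4 at 333, 467 and 497 CPM in libraries 1, 4 and 8. Batch 1 lay above the others except for library 7, which was just under library 8, and the batch test gave an adjusted p of 0.0947 in edgeR.

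**Figure D5:**
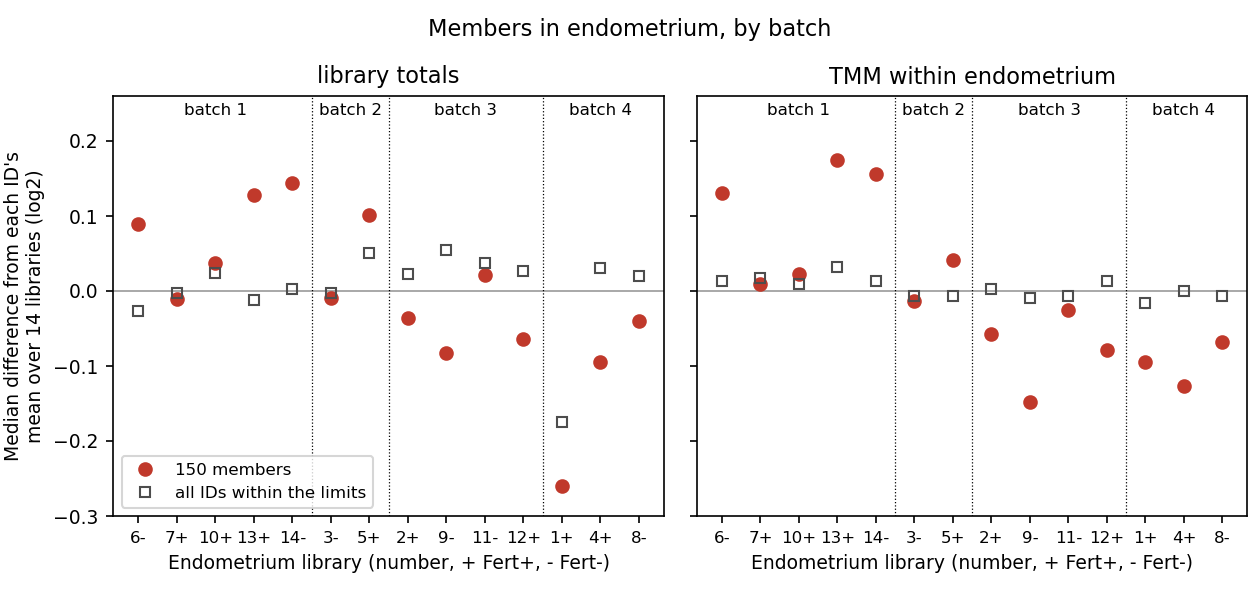
Median over the 150 members (filled) and over all IDs within the limits (open squares) of the difference from each ID's mean over 14 endometrium libraries, on the log2 scale, by library and batch, with library totals on the left and TMM scaling on the right. With TMM scaling the members run from -0.15 in library 9 to 0.17 in library 13, and the 3 libraries of batch 4 and the 4 of batch 3 lie below 0.

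Across the 14 endometrium libraries the members' levels went up and down together to some degree. The mean correlation over all pairs of members was 0.223, against 0.0491 over pairs of the 12121 IDs, and 0.211 against 0.00265 with TMM scaling. Without Fert+ library 1 it was 0.159 against 0.0183 with library totals, and 0.228 against 0.00249 with TMM scaling. Abundance moved with this value: for the 114 members of at least 50 CPM in corpus luteum it was 0.275, against 0.0934 for the 3177 IDs at that level. These are descriptions over libraries that share batch, depth and composition. The members' own spread in endometrium was smaller than that of all IDs, with a median SD of 0.20 (log2) per member, against 0.25. Their endometrial mean was also higher, with a median of 95.2 CPM against 28.6 CPM, and the spread was not compared at matched abundance.

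Endometrium libraries 1, 2, 4 and 5 have numbers lower by 14 than the 4 set-apart luteal libraries and share their line, batch and parity, but the labels do not tie the tissues of a cow together. The members took 4.52%, 5.32%, 5.00% and 5.50% of the counts in these libraries, and 6.04%, 5.48%, 5.70% and 6.09% in Fert+ endometrium libraries 7, 10, 12 and 13. Libraries 1, 2 and 4 lay below and library 5 inside the range of the others. Per member the difference had a median of -0.07 (log2), with 107 of 150 (71.3%) below 0. Over all IDs the median was 0.00, with 50.9% below 0. This grouping was made with the luteal values known, follows batch in part, and was not tested.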

How the data were processed

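The authors deposited whole-number read counts per gene ID, 1 table for each of 26 libraries, with no normalisation. Tools named in the submitters' processing notes are STAR 2.3.0, featureCounts, CASAVA 1.9, FastQC 0.10.0 and Trim Galore, with the build UMD3.1. Per the labels' protocols, a TruSeq kit was used on TRIzol-extracted RNA; it does not mark strand. For the annotation release, the strand setting and multiply mapped reads no setting is given in the sources read, so counts of genes that overlap or resemble each other are uncertain. No 2 libraries of a group were alike within sampling noise (lowest chi-square per degree of freedom 16.5 over 74 pairs).

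Levels are log2(CPM + 1), with CPM from library totals. Counts were fitted per tissue in edgeR 4.0.16 (R 4.3.3; filterByExpr by line, TMM factors, robust quasi-likelihood F test, batch as a factor), with Benjamini-Hochberg adjusted p under 0.05 over all IDs as the threshold. The tissue contrast fitted all 26 libraries with batch and line. Alternatives were DESeq2 1.42.0, limma-voom 3.58.1, other scalings, filters and model terms, and leaving out each library. The members, lists and tests were chosen with earlier results of these data known. IDs were named by a rule: the 2 largest gaps, the 2 highest luteal means, and the smallest p in each direction for the endometrium line and for the tissue. The 13 gene lists drawn up by symbol were not tested, because 0 IDs had a symbol.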

Additional observations from a re-analysis of the deposited data

Results flagged for a closer look

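In 2 of 40 groups of values examined, 1 library lay far from the rest of its group against the group's range, and chance gives 2. ENSBTAG00000018189 was at 18.8 CPM in Fert- corpus luteum library 28, and the next Fert- library was at 7.92 CPM. ENSBTAG00000014534 was at 7355 CPM in Fert- endometrium library 14, and the next Fert- library was at 6216 CPM.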

How the results depend on the processing

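Another pseudocount or other limits on the rule left the number of IDs found and the members shared within 1.5 times. With TMM-scaled CPM the rule found 929 IDs, and its top 150 shared 57 with the members. With 1 luteal library left out, an alternative added after seeing the data, it found 209 (without Fert+ library 23) to 371 (without Fert+ library 21) IDs and shared 81 (without Fert+ library 21) to 140 members, with 96 without Fert- library 28. The members' median in the 4 libraries against the other 8 was -0.60 with TMM over 26 libraries, -0.61 with TMM within corpus luteum and -0.51 within batch 2, and from -0.38 to -0.35 with 1 library left out.

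At an unadjusted p under 0.05 for the line in endometrium there was 1 member among 428 IDs. This number became 2 (of 584 IDs) without the low-count filter, 3 (of 653) in DESeq2 and 2 (of 454) with batch and parity. With 1 library left out it was 0 to 5, with 5 of 887 IDs without Fert+ library 10. No setting called a member. For the line in corpus luteum, 0 called members became 3 (of 227 IDs called) in DESeq2, 39 (of 1191) without the batch term and 0 to 29 with 1 library left out (29 of 908 without Fert+ library 23). The 107 at an unadjusted p became 3 (of 519 IDs) without the 4 libraries and 23 to 136 with 1 left out, and the number over all IDs went from 2845 to between 1104 and 4373. Members lower in corpus luteum than in endometrium numbered 14 without the 4 libraries, a direction of change that follows from the selection. There 10769 IDs were called in either direction. The causes of the other changes were not tested. No paired analysis was possible because the labels give no replicate number to more than 1 library. The gaps of 78 members were within 2 counting errors, and their relation to depth was not tested.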
